A study of Drosophila melanogaster with 2 samples.

Results

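The vacuolar H+-ATPase (V-ATPase) genes of Drosophila melanogaster were taken as all protein-coding genes whose symbol starts with Vha in the dm6 annotation. They numbered 33 of 13945 protein-coding genes on the chromosome arms that held peaks. Chromatin immunoprecipitation with sequencing (ChIP-seq) had been done on whole embryos of both sexes, 0 to 24 h old, in 2 biological replicates of 1 group. The flies were of 1 transgenic line with an intronic eGFP exon that fuses GFP to the protein of the targeted gene, and chromatin was pulled down with an antibody against GFP. The labels call the strain side-MiMIC-GFP and the fusion Side-eGFP, but give Sidpn as the target of the insertion. These are different genes in the annotation: side encodes a cell surface protein of axon guidance and Sidpn a basic helix-loop-helix repressor. The labels do not settle which protein was precipitated, and it is called the tagged protein here. There was no second condition, so no test between groups was made, and the results are counts, signals and ranks. Both replicates come from 1 tagged line, and a peak in few cells of the embryo cannot be told apart from a weaker peak in many.

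The V-ATPase is a rotary proton pump that acidifies lysosomes, endosomes and secretory vesicles in all cells and moves protons across the plasma membrane in some epithelia, such as the Malpighian tubule. Its soluble V1 sector hydrolyses ATP, and its membrane V0 sector carries the protons. Many subunits have several gene copies in the fly. For each subunit the copy known as the widely used one was called the main copy (14 genes, with Ac45). The remaining 19 were called other copies. Many of those are known from testis, Vha100-1 from neurons and Vha100-4 from the midgut, but Vha68-1 is known to be widely expressed, so the other copies are not all tissue-restricted. ChIP-seq does not measure expression, so these classes rest on what is known of the genes.

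For every gene and each of 4 deposited dm6 lists, the strongest peak was taken whose summit lay no more than 500 bp from a start site of the gene. Each replicate and the pool of both had a list of 30000 candidates, which hold peaks and background. A further list held the 4097 candidates past the authors' irreproducible discovery rate (IDR) threshold, called thresholded here. Those were the 4097 strongest of the pooled list, with signals of 81.5 and above. Signal is the value of the authors' peak caller, whose scale is not stated, and rank 1 is the highest signal of a list. Read depth is unknown for both replicates.

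Of the 33 V-ATPase genes, 25 (75.8%) had a pooled candidate summit at a start site, against 55.6% of all protein-coding genes. A thresholded summit was found at 11 (33.3%), against 19.6% of all protein-coding genes. Of the genes with a candidate, 44% of V-ATPase genes and 35.2% of all protein-coding genes had a thresholded one. The counts differed by copy. All 14 main copies had a candidate and 8 (57.1%) a thresholded summit. Of the 19 other copies, 11 (57.9%) had a candidate and 3 (15.8%) a thresholded summit. With these settings the other copies lay near the shares of all genes, but their candidate count was lower in other settings. It was 8 without replicate 1, 9 without replicate 2 and 5 with a window of 200 bp. The main copies with a candidate numbered 14, 14 and 11 in these settings. The shares of all protein-coding genes were then 55.6%, 54.9% and 43.4%. With each peak given to its nearest gene, 11 main and 8 other copies had a candidate, against 47.6% of all protein-coding genes. Placing genes without a candidate below all others, the median pooled signal was 45.9 over the 33 genes, 98.8 over the main copies and 19.1 over the other copies, against 24.8 over all protein-coding genes. The lowest signal in the pooled list was 18.8, so the median of the other copies lay at the floor of that list. The main copies were chosen as widely expressed genes, and their count was not set against other widely expressed genes.

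**Figure D1:**
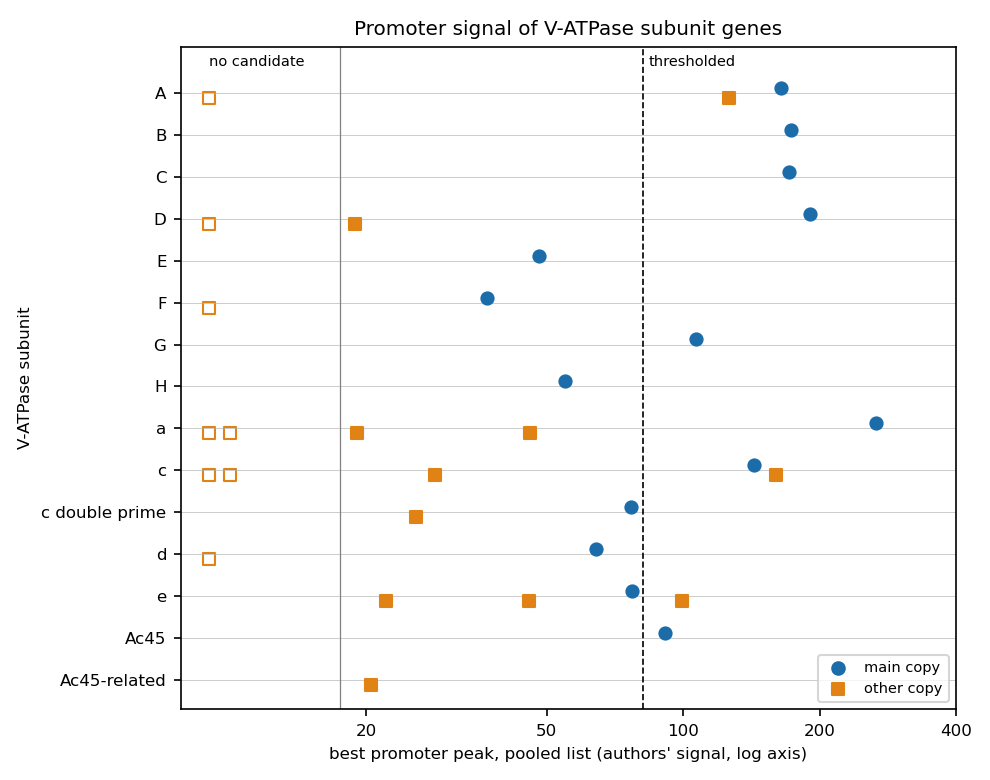
Best promoter peak of each V-ATPase gene in the pooled list (authors' signal, log axis) by subunit, with main copies as circles and other copies as squares. Open squares left of the grey line are the 8 genes with no candidate, all of them other copies; right of the dashed line at 81.5 lie 8 main and 3 other copies.

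Subunit A, the catalytic subunit that hydrolyses ATP in V1, has 3 copies on chromosome arm 2L. Vha68-2 (FBgn0263598, chr2L:12974322-12978607), the main copy, had a thresholded peak with signals of 92.4 in replicate 1, 72.2 in replicate 2 and 164.7 in the pool, and its summit lay 146 bp upstream of the outermost of 5 start sites (position -146). Vha68-1 (FBgn0265262, chr2L:13000770-13004107) had 68.7 in replicate 1, 55.7 in replicate 2 and 126.5 in the pool, with its summit at -112. These peaks ranked between 1211 and 2366 in all 3 candidate lists, so both copies were inside the strongest 4097 in each replicate. Vha68-3 (chr2L:12978786-12981293), which starts 178 bp after the end of Vha68-2 and is transcribed the same way, had no candidate in any list within 500 bp. A window of 1000 bp gave it a pooled candidate but no thresholded one. The DNA at these promoters is printed here because the copies of 1 subunit differ in their peaks. It is the stretch without annotated exons up to the base before the start site, on the strand of the gene (dm6), and capitals mark the 21 bases centred on the pooled summit. The stretch is chr2L:12974026-12974321 for Vha68-2, chr2L:13004108-13004369 for Vha68-1 and, with no summit to mark, chr2L:12978608-12978785 for Vha68-3.
Vha68-2: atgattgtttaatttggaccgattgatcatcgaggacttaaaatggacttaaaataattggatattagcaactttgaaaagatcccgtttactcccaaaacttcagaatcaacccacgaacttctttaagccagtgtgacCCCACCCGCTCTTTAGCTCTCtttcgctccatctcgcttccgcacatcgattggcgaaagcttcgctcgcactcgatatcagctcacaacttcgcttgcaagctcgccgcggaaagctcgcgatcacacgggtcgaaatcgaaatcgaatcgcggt
Vha68-1: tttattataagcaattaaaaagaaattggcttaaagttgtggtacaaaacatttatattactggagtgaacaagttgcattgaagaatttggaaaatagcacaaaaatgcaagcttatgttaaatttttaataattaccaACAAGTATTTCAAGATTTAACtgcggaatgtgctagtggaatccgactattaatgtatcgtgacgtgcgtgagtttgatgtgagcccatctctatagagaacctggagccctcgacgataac
Vha68-3: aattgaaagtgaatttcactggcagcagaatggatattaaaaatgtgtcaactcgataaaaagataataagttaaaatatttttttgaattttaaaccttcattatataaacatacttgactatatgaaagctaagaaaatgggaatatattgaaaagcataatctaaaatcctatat

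In the Vha68-2 sequence the core of motif 1, a core promoter element written GGTCACAC, begins 17 bases before the summit, on the opposite strand. Of all protein-coding genes with a candidate, 6.47% hold it within 100 bp of the summit, and Vha68-2 was the only V-ATPase gene that did. Vha55 (FBgn0005671, chr3R:12623762-12627829) encodes subunit B, which forms the ATP-binding ring of V1 together with A and has a single copy. Its peak had signals of 129.2 in replicate 1, 35.2 in replicate 2 and 173.0 in the pool, with the summit at -38 in intergenic DNA. It ranked 637 in replicate 1 and 5088 in replicate 2, so it lay among the strongest 4097 in replicate 1 only. The log2 ratio of replicate 1 over replicate 2 was 1.88 at Vha55, against a median of 0.25 over the 2711 protein-coding genes with a thresholded summit and a peak in both replicates, and 13 of those genes (0.48%) had a higher ratio. The replicates' summits lay 4 bp apart, so their positions lay close while their signals did not. The peak is shared with Snx3, a sorting nexin gene that starts 202 bp away in the other direction. The exon-free DNA before the start of Vha55, with the 21 bases at the summit in capitals, is chr3R:12627830-12628017 on the strand of the gene.
Vha55: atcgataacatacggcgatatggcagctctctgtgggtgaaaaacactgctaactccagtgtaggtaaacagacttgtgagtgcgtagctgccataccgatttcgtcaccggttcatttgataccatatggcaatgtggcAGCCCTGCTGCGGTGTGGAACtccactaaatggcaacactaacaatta

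**Figure D2:**
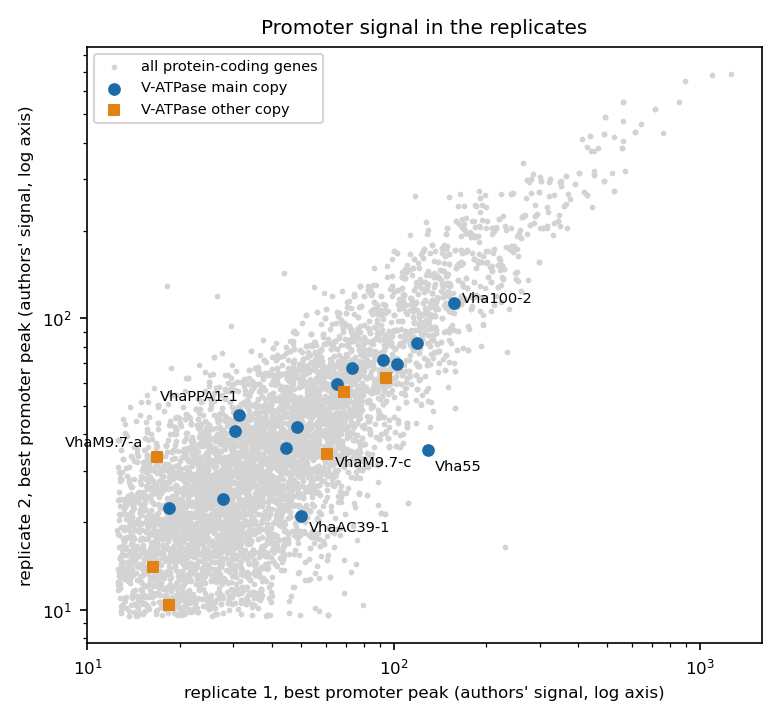
Best promoter peak in replicate 1 (x axis) and replicate 2 (y axis) for protein-coding genes with a pooled candidate and a peak in both (authors' signal, log axes), with V-ATPase main copies as circles and other copies as squares. Vha55, at 129.2 in replicate 1 and 35.2 in replicate 2, lies furthest to the lower right of the V-ATPase genes.

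Subunits D and F form the central shaft that turns inside V1. Vha36-1 (FBgn0022097, chr2R:15541435-15542498), the main copy of D, had signals of 119.7 in replicate 1, 82.1 in replicate 2 and 190.9 in the pool. It was the second strongest of the V-ATPase genes, with pooled rank 958 and the summit at -30, 42 bp upstream of the start of CG8187 on the other strand. The other copies of D had no thresholded peak: Vha36-2 had a pooled candidate of 18.9 inside its coding exon and none in the replicates, and Vha36-3 had no candidate in any list. Vha14-1 (FBgn0262512, chr2R:15679426-15680084), the main copy of F, had signals of 18.5 in replicate 1, 22.4 in replicate 2 and 36.9 in the pool, the lowest pooled signal of the main copies. A thresholded summit of signal 355.4 lay 835 bp downstream of its start site, beyond the end of the gene. Vha14-2, the other copy of F, had no candidate in any list.

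Subunit C joins V1 to the stationary part of V0 and leaves the pump when the sectors come apart. Its single gene Vha44 (FBgn0287825, chr2R:16324813-16336637) had signals of 102.7 in replicate 1, 69.5 in replicate 2 and 171.4 in the pool. The summit at -71 lay 52 bp upstream of a start site of Hmgs, the gene of HMG-CoA synthase on the other strand, and inside an annotated 5' UTR of Hmgs. Subunits E and G build the outer stalks that hold V1 still. Vha13 (FBgn0283536, chr3R:19643018-19644386), which encodes G, had signals of 65.4 in replicate 1, 59.7 in replicate 2 and 106.6 in the pool, with its pooled summit 12 bp after the start, in the 5' UTR. The replicates placed its summit 171 bp apart, the largest distance among the thresholded members. Vha26 (FBgn0283535, chr3R:5591763-5595356), which encodes E, was below the threshold with 30.4 in replicate 1, 41.0 in replicate 2 and 48.1 in the pool. Its replicate summits lay 300 bp apart, and in the pool the summit was nearer to noi, a splicing factor gene, than to Vha26. VhaSFD (FBgn0027779, chr2L:16722883-16727826), which encodes H, the subunit that keeps free V1 from hydrolysing ATP, was also below the threshold with 27.8 in replicate 1, 23.9 in replicate 2 and 54.9 in the pool.

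In V1 as a whole, 5 of 8 main and 1 of 5 other copies had a thresholded summit. In V0 the counts were 2 of 5 main and 2 of 13 other copies. The share of all protein-coding genes was 19.6%, so the other copies lay near it in V1 (20%) and in V0 (15.4%). Subunit a of V0 carries the proton path and decides where in the cell the pump goes. Vha100-2 (FBgn0028670, chr3R:18390323-18399169), its main copy, held the strongest peak of the family, with signals of 157.7 in replicate 1, 113.2 in replicate 2 and 266.2 in the pool (rank 482). That signal was 3.26 times the lowest thresholded one. The peak (chr3R:18397082-18397323) lay inside an intron of Vha100-2, 300 bp upstream of its inner start site (position -300), and in a 5' UTR of Vti1b, a gene of a vesicle fusion (SNARE) protein that starts 67 bp from the inner start on the other strand and is the nearer gene. With a window of 200 bp or the outermost start site only, this peak is not counted for Vha100-2, and Vha36-1 is the strongest. A further thresholded peak (signal 89.6, rank 3549) lay at -95 from the outermost start site of Vha100-2, so a thresholded summit lay within 500 bp of both of its start sites. Of the other copies of a, Vha100-1 had 45.9 in the pool and 19.2 in replicate 1 with no candidate in replicate 2, and that summit was nearer to dgt6 than to Vha100-1. Vha100-5 had 19.1 in the pool only, Vha100-4 had 24.4 in replicate 2 only, and Vha100-3 had no candidate.

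Subunit d couples the rotor of V0 to the shaft, and e is a small membrane subunit. VhaAC39-1 (FBgn0285910, chrX:3880748-3882967), the main copy of d, was below the threshold with 49.8 in replicate 1, 21.0 in replicate 2 and 64.2 in the pool. It ranked 3529 in replicate 1, inside the strongest 4097, and 10748 in replicate 2. VhaAC39-2 had 14.8 in replicate 2 only. Among the 4 copies of e the thresholded one was not the copy taken as main. VhaM9.7-c (FBgn0028664, chr3L:4186018-4186865) had 60.5 in replicate 1, 34.2 in replicate 2 and 99.4 in the pool, while VhaM9.7-b (FBgn0028663, chr3L:21539862-21541215) had 44.7 in replicate 1, 35.9 in replicate 2 and 77.0 in the pool. In replicate 2 the order of these copies was the reverse. The pooled summit at VhaM9.7-b lay at -387, nearer to COX8, a gene of the respiratory chain, whereas that at VhaM9.7-c lay at -20 with no other start site within 500 bp, in introns of the overlapping genes Teh2 and CG18675. VhaM9.7-a had 45.8 and VhaM9.7-d 22.1 in the pool. The DNA before the start of VhaM9.7-c, chosen because it is the other copy with an unshared thresholded peak, is chr3L:4186866-4187035 on the strand of the gene, with the 21 bases at the summit in capitals.
VhaM9.7-c: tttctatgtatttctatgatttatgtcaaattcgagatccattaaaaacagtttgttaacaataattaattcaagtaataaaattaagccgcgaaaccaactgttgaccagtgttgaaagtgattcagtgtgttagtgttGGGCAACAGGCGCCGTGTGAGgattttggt

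The c and c'' subunits are the proteolipids of the V0 ring that carry the protons round. Vha16-1 (FBgn0262736, chr2R:6625242-6633090), the main copy of c, had signals of 73.0 in replicate 1, 67.5 in replicate 2 and 143.5 in the pool, with the summit at -103 from its outermost start and no other gene sharing the peak. Its inner start site had a candidate of 64.8, and a thresholded peak of 83.6 lay inside the gene, 4017 bp downstream of the nearest start (chr2R:6628162-6628571, rank 3961). It was the only thresholded peak inside a V-ATPase gene and beyond 500 bp from its start sites. Vha16-5 (FBgn0032294, chr2L:10736319-10737043) had 94.2 in replicate 1, 62.4 in replicate 2 and 160.0 in the pool, above the main copy in the pool and in replicate 1 and below it in replicate 2. That summit, at -301 from Vha16-5, lay at -1 from the start of CG12299 on the other strand, so CG12299 is the nearer gene. Vha16-4 had 28.4 in the pool, inside its coding exon, and no candidate in replicate 2. That summit was nearer to a start site of CG34190 than to that of Vha16-4. The neighbouring copies Vha16-2 and Vha16-3 had no candidate in any list. VhaPPA1-1 (FBgn0028662, chr3R:14902330-14904061), the main copy of c'', was just below the threshold with 31.3 in replicate 1, 46.6 in replicate 2 and 76.7 in the pool, and it ranked 3147 in replicate 2 but 7365 in replicate 1. VhaPPA1-2 had 25.8 in the pool.

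The accessory subunit Ac45 sits in the membrane beside V0. VhaAC45 (FBgn0262515, chr2R:9207561-9209774) had the lowest thresholded signal of the family, with 48.2 in replicate 1, 42.5 in replicate 2 and 91.0 in the pool. Its peak, at -162, is shared with Gnptab, which starts 437 bp away on the other strand. The related gene VhaAC45RP had 20.5 in the pool. Just inside the threshold lay VhaAC45 (91.0), VhaM9.7-c (99.4) and Vha13 (106.6), and just outside it VhaM9.7-b (77.0), VhaPPA1-1 (76.7) and VhaAC39-1 (64.2).

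In each replicate taken alone, 12 V-ATPase genes had a summit among the strongest 4097 peaks of replicate 1, against 19.8% of all protein-coding genes, and 11 among those of replicate 2, against 19.1%. The V-ATPase genes in both numbered 9, against 14.8% of all protein-coding genes. They were Vha100-2, Vha36-1, Vha44, Vha68-2, Vha16-5, Vha16-1, Vha68-1, Vha13 and VhaAC45. Vha55 and VhaM9.7-c were among the strongest in replicate 1 and not in replicate 2, although the pool holds them above the threshold. VhaAC39-1 reached the strongest 4097 in replicate 1 alone, and Vha26 and VhaPPA1-1 did so in replicate 2 alone, with pooled signals below the threshold. All 11 thresholded members had a higher signal in replicate 1 than in replicate 2, as had 68% of all protein-coding genes with a thresholded summit and a peak in both replicates. The replicate lists were made separately, so this ratio also holds any difference in scale between them. The median log2 ratio was 0.48 at the 11 genes and 0.25 at all of them, and the SD of the ratio over all of them was 0.57. Over the 20 V-ATPase genes with a peak in both replicates and in the pool, the signals had a Spearman rho of 0.80, and over 6444 protein-coding genes 0.76. The same control was used for both replicates, and its part in this correlation was not tested.

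**Figure D3:**
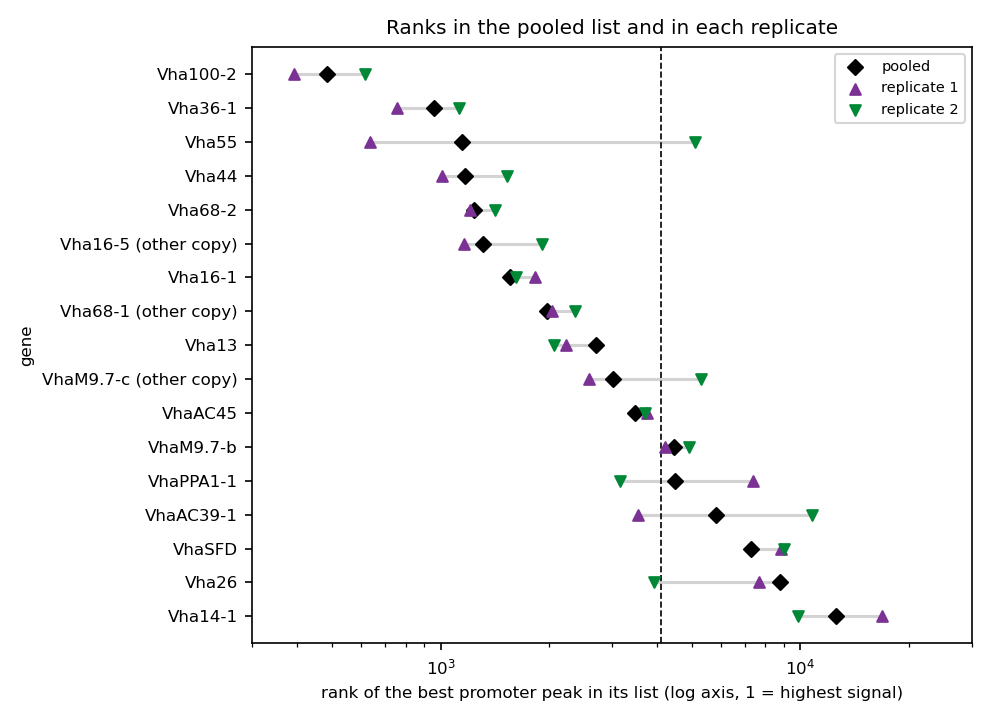
Rank of the best promoter peak in the pooled list (diamonds), replicate 1 (upward triangles) and replicate 2 (downward triangles), on a log axis, for the 11 thresholded genes and the 6 main copies below the threshold; the dashed line marks rank 4097. Vha55 spans ranks 637 to 5088 and VhaAC39-1 3529 to 10748, while Vha68-2 and VhaAC45 rank nearly alike in all 3 lists.

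Of the 11 thresholded members, 10 (90.9%) had their summit upstream of the start site, and the median position was -103 bp, with a range of -301 to 12 bp. Over all 2734 protein-coding genes with a thresholded summit, 80.1% of summits were upstream with a median of -95.5 bp, so these genes lay where others do. The summit was intergenic at 7 of the 11, and inside their own gene at 8 of the 14 members with only a candidate. The shares of these places over all protein-coding genes were not determined. Of those 14, 6 (42.9%) had the summit upstream, with a median of 98.5 bp. Over the 5023 protein-coding genes with only a candidate, 60.2% had it upstream and the median was -32 bp. Peaks were shared with the start site of another gene at 7 of the 11 (63.6%), against 57.2% of all genes with a thresholded summit. The partners were Vti1b, CG8187, Snx3, Hmgs, CG12299, mTor and Gnptab. The partner of Vha68-1, mTor, encodes the TOR kinase and starts 373 bp from it in the other direction. The unshared ones were Vha68-2, Vha16-1, Vha13 and VhaM9.7-c. At 3 of the 7 shared peaks (Vha100-2, Vha44 and Vha16-5) the summit was nearer to the partner. Since start sites of 2 genes lie within 500 bp of a shared summit, it was not determined which of them it belongs to.

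**Figure D4:**
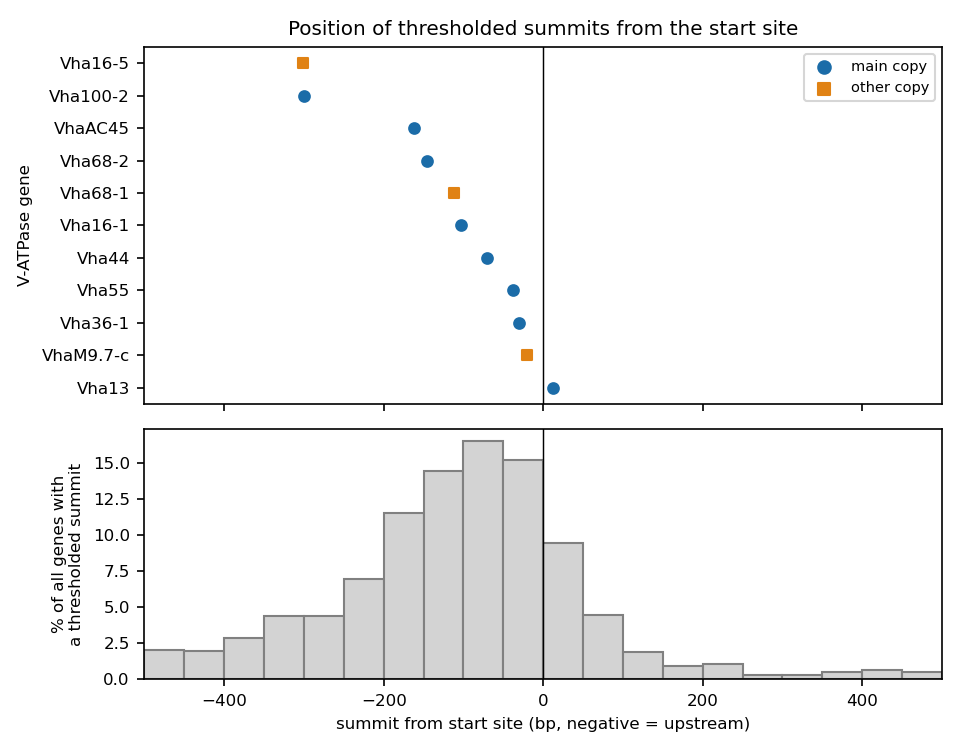
Top, position of the pooled summit from the nearest start site for the 11 thresholded V-ATPase genes (bp, negative is upstream), with main copies as circles and other copies as squares. Bottom, the same over all 2734 protein-coding genes with a thresholded summit, in percent per 50 bp; the V-ATPase summits span -301 to 12 bp.

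In 3 places a main copy and another copy of the same subunit lie close together on the same strand, with 1 gene between VhaPPA1-1 and VhaPPA1-2 and none between the others. Vha68-2 had a thresholded summit (164.7) and Vha68-3, 178 bp beyond it, no candidate at its start. Vha100-2 had 2 thresholded summits and Vha100-4, 517 bp beyond it, no pooled candidate. At VhaPPA1-1 the candidate reached 76.7 and at VhaPPA1-2, 2052 bp beyond it, 25.8. In each pair the main copy thus held the stronger promoter peak. The nearest thresholded summit to any of the 8 genes with no pooled candidate was at Vha36-3 (-1761 bp, signal 206.1), and the farthest at Vha14-2 (76018 bp).

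**Figure D5:**
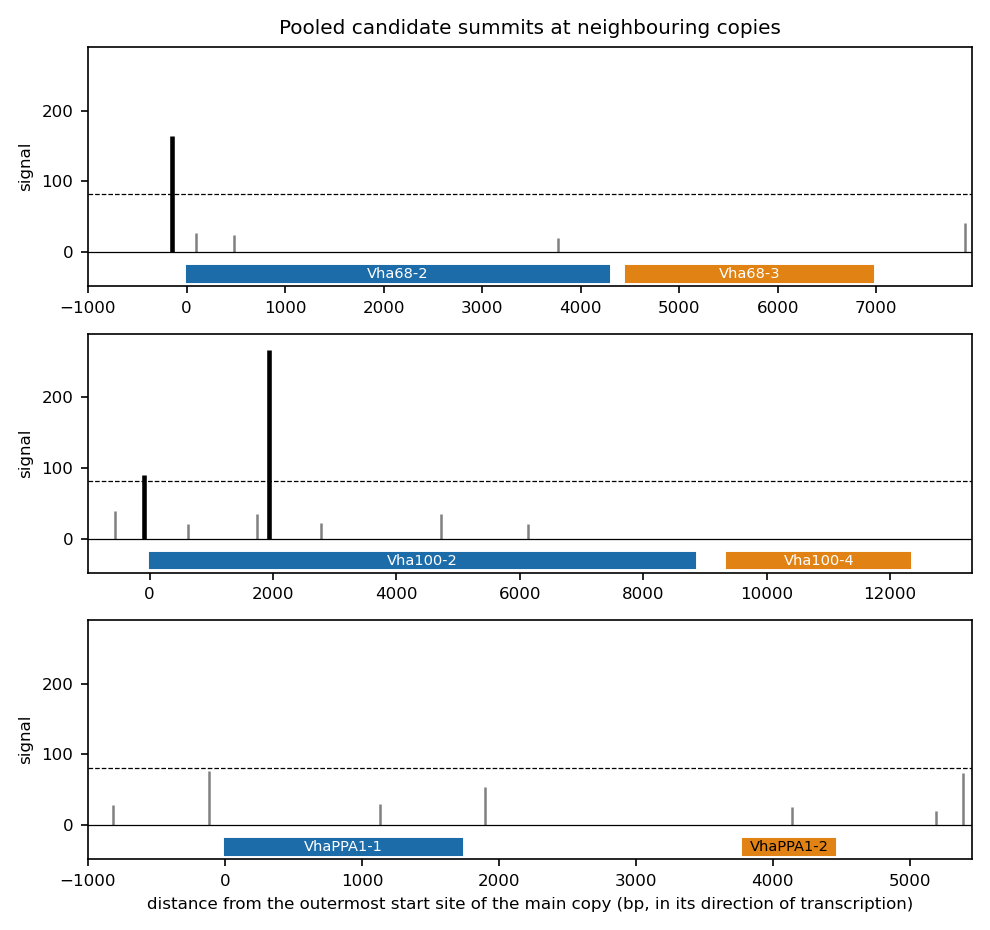
Pooled candidate summits (vertical lines, height is the authors' signal; thick lines are thresholded, dashed line at 81.5) at 3 pairs of copies that lie close together, by distance in bp from the outermost start site of the main copy in its direction of transcription. Boxes are the genes; the thresholded lines stand at Vha68-2 (164.7) and at Vha100-2 (89.6 and 266.2), and none stands at the second gene of a pair.

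Promoters were searched for 11 motifs on both strands, from 250 bp before to 50 bp after the start site. The E-box CACGTG, which basic helix-loop-helix proteins bind, was in 3 of the 33 V-ATPase promoters and in 4.2% of all protein-coding promoters. Those were Vha44, VhaAC45RP and VhaM9.7-d. TCACGTGA, the core of the element through which Mitf activates V-ATPase and lysosomal genes, includes that E-box and was in 1 V-ATPase promoter, that of Vha44 (starting at -48, and 23 bases after the pooled summit), and in 24 of all 13945 promoters (0.172%). CACGCG, a site of HES-type repressors, was in 2 (Vha36-1 and Vha55) and in 6.67% of all promoters, and the N-box CACNAG in 11 and in 29.9%. Within 100 bp of the pooled summit, Vha55, Vha44 and VhaAC45RP held CACGTG (3 of 25), against 3.06% of all protein-coding genes with a candidate. There, TCACGTGA was at 1 of 25 against 0.206%, CACGCG at 2 (8%) against 6.1%, CACNAG at 7 (28%) against 26.3%, CAGCTG at 4 (16%) against 15%, TATCGATA at 0 against 8.43% and GGTCACAC at 1 (4%) against 6.47%. TATAAA was at 4 (16%) against 23.7%, GAGAG at 6 (24%) against 23.8%, CAGGTAG at 1 (4%) against 1.19% and TCTTTC at 2 (8%) against 11.6%. In the promoters, CAGCTG, another E-box, was in 9 of the 33 promoters and in 18.3% of all promoters, the DNA replication-related element TATCGATA in 2 and 9.09%, GGTCACAC in 4 and 7.57%, and TATAAA in 17 and 45.1%. GAGAG, a core of GAGA factor sites, was in 9 and 31%, the early embryonic motif CAGGTAG in 1 and 1.68%, and TCTTTC in 4 and 16.3%. Median GC content of the window was 36.5% at V-ATPase genes (39.2% at main and 34.2% at other copies), against 38.2% at all protein-coding genes.

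Of 41 further genes of V-ATPase assembly, lysosomes and the recruitment of TOR to lysosomes, 32 had a pooled candidate, against 55.6% of all protein-coding genes. There were 9 (22%) with a thresholded summit, near the 19.6% of all protein-coding genes. Sesn, which encodes a sestrin that signals amino acid supply to TOR, had the strongest, with 325.5 in replicate 1, 299.6 in replicate 2 and 617.8 in the pool, above every V-ATPase gene. mtd, whose protein carries the TLDc domain of V-ATPase interactors, had 326.1 in the pool, and Hexo2, a hexosaminidase gene, 319.4. CG7071 followed with 205.9, and Lamtor3, of the complex that anchors TOR at lysosomes, with 173.8. The lysosomal enzyme genes Ppt1, CtsB and CtsL1 had 156.7, 125.9 and 103.6 in the pool. Cln7, a gene of a lysosomal membrane protein, had 102.2. Of these 9 peaks, those at Sesn (with CG46429), CG7071 (JMJD6 and Muted), Lamtor3 (fws), Ppt1 (Ogg1), CtsB (amrt) and CtsL1 (Rpn13) are shared with other genes, and those at mtd, Hexo2 and Cln7 are not. Mitf itself had a candidate of 39.0 and Rbcn-3A, of the complex that reassembles the pump, one of 26.9, while Rbcn-3B had none in the pool. ATP6AP2, the prorenin receptor that joins V0 and is not named Vha in this annotation, had 44.5 in replicate 1, 33.1 in replicate 2 and 79.1 in the pool, just below the threshold.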

How the data were processed

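ChIP-seq peaks of 2 biological replicates of 1 group were analysed. Per the deposited file records, the authors made a narrow peak list per replicate and for the pool, each against the same control and as input for IDR, and from them an optimal thresholded list. Fragments were 200 to 800 bp, per the labels. For aligner, peak caller and IDR threshold, names and versions were not given in the sources used here. The authors' signal per peak (deposited column 7) was used for ranks and descriptions inside each list, and for a ratio between replicates that is read only against the same ratio at other genes. The dm3 lists and the other scores were not used.

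Sequence was that of dm6 (Release 6), with genes and start sites of Ensembl release 115 (version 6.54) without transposable elements or pseudogenes. All coordinates count from 1. A summit (column 2 plus column 10) within 500 bp of any start site counted for that gene, shared peaks for each gene. Searches were made with Python 3.11.15, numpy 2.4.6 and pandas 2.3.3, and tested on simulated data. The 33 members, the split into copies, the 41 further genes and the motifs were chosen with earlier results of these data known, so no list was tested. The genes given in full were those with a thresholded summit and the main copies. ATP6AP2 was planned as a main copy and is given apart because it does not carry the Vha name. The listed CtsD was matched to cathD.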

Additional observations from a re-analysis of the deposited data

How the results depend on the processing

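With peaks scored by overlap, only the outermost start site or a window of 1000 bp, the counts of V-ATPase genes stayed within 1.5 times those reported. In that order, the share of all protein-coding genes with a thresholded summit was 21%, 17.6% and 22.6%, against 19.6% as reported. Their share with a candidate was 59.1%, 53.2% and 62.6%, against 55.6%. Without replicate 1, thresholded summits (the strongest 4097 of the other replicate) lay at 11 of the 33 genes, against 19.1% of all protein-coding genes. Without replicate 2 they lay at 12, against 19.8%. These were 9 of the main copies in each case and 2 to 3 other copies. Candidates lay at 22 genes without replicate 1 and at 23 without replicate 2, against 55.6% and 54.9%. Among them were all 14 main copies and 8 to 9 other copies. With a window of 200 bp, candidate counts moved by more than 1.5 times, to 16 of the 33 V-ATPase genes and to 5 other copies. The main copies with a candidate fell from 14 to 11. The share of all protein-coding genes with a candidate was then 43.4%, so by candidates the V-ATPase genes lay nearer to all genes than with 500 bp. Thresholded summits within 200 bp lay at 10 of the 33 genes (8 main and 2 other copies), against 15% of all protein-coding genes. In the 1000 strongest peaks 2 of the 33 genes remained (Vha100-2 and Vha36-1, with 2 main and 0 other copies), near the 5.52% of all genes. With 2 settings chosen after the data were seen, peaks shared with no other gene lay at 4 V-ATPase genes (3 main copies and 1 other copy), against 8.58% of all genes, and thresholded peaks that overlap the strongest of both replicates at 9, against 14.7%. With each peak given to its nearest gene, 9 genes had a thresholded summit, without Vha44 and Vha16-5, against 14.6% of all genes. The signal of Vha100-2 was 89.6 with a window of 200 bp or the outermost start site only, and Vha36-1 (190.9) was then the strongest of the family. Depth is unknown, so a missing candidate does not show that the protein is absent. No paired analysis was possible because there is a single group.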
